A study of Mus musculus with 26 samples.

Results

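The 31 genes described here encode enzymes and regulators of cholesterol and fatty acid synthesis. They were taken by exact gene name from the 25814 genes of each deposited table, with 20 genes in the sterol arm and 11 in the fatty acid arm. Messenger RNA was sequenced from T cells sorted by flow cytometry from Peyer's patches, the lymphoid follicles of the small intestinal wall. All mice were C57Bl/6, and the labels name no allele, transgene or agent besides the diet. Of the CD4+ T cell libraries, 6 were from mice given an elemental diet, which supplies amino acids in free form instead of protein, and 6 from mice given a conventional diet. A further pair was sorted from conventionally fed mice by CD44, an adhesion molecule that T cells gain after activation, giving 7 CD44+ and 7 CD44- libraries. The labels do not state if the CD44 sorts also used CD4, or if replicates came from separate animals, so p-values measure only the spread between these libraries. CD4+ libraries were made from 22 ng of RNA and the others from 1 ng with another kit, so the 2 pairs of groups were not set against each other.

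Cholesterol is built from acetyl-CoA through mevalonate, farnesyl diphosphate, squalene and lanosterol, and fatty acids are built from the same acetyl-CoA by carboxylation, chain extension, desaturation and elongation. Both arms are transcribed under SREBP factors, membrane-bound proteins that INSIG proteins hold in the endoplasmic reticulum when sterols are plentiful. Srebf2 encodes the factor that acts mainly on sterol genes, and Srebf1 the one that acts mainly on fatty acid genes. T cells that enter the cell cycle are known to raise both arms to supply membrane.

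The promoters of 6 of these genes are shown because SREBP factors are known to act at sterol regulatory elements together with NF-Y, which binds CCAAT boxes. Each is the 300 bases from 250 before to 50 after the transcription start in RefSeq, build GRCm38.p6, read 5′ to 3′ along the gene. Capitals mark CCAAT on either strand (ATTGG on the opposite strand) and, in Hmgcs1, TCACCCCAC, a match to the sterol regulatory element TCACNCCAC.
Hmgcs1 (chr13:119690101-119690400, plus strand): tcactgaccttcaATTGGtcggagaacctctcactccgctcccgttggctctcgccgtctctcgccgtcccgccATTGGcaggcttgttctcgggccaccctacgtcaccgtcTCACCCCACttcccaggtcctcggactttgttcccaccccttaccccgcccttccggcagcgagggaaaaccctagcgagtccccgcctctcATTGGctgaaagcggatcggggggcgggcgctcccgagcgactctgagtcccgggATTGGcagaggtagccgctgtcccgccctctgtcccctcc
Idi1 (chr13:8885356-8885655, plus strand): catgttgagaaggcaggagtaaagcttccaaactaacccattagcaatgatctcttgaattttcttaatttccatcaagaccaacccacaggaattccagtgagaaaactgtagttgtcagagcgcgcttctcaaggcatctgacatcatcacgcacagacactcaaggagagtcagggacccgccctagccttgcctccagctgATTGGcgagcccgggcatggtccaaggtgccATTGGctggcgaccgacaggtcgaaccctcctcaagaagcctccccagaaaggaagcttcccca
Lss (chr10:76531355-76531654, plus strand): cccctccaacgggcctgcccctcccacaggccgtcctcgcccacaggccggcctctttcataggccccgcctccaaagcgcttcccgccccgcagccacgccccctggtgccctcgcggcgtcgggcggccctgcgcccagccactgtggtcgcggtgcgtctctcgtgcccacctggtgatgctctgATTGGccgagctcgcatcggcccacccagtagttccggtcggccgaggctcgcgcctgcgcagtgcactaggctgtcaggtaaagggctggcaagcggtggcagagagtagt
Cyp51 (chr5:4104648-4104947, minus strand): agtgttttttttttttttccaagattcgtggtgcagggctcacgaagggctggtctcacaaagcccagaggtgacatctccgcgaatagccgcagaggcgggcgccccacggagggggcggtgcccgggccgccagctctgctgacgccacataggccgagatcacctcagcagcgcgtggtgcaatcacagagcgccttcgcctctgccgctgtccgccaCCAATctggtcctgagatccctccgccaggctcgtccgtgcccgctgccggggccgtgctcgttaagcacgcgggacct
Srebf2 (chr15:82147019-82147318, plus strand): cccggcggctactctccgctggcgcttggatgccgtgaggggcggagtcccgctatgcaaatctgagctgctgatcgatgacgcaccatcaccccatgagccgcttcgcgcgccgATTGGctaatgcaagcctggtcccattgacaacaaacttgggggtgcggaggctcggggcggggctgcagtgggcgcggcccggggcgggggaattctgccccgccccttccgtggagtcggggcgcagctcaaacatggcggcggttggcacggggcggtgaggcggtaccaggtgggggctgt
Fasn (chr11:120824498-120824797, minus strand): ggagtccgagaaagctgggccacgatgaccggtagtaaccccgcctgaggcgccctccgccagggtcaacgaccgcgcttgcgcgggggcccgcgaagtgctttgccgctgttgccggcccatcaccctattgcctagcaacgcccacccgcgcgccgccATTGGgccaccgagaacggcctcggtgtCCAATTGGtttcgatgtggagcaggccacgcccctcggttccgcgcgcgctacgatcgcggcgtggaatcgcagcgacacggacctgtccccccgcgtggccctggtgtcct
Of the 31 genes, 24 had a promoter in the RefSeq table. CCAAT on either strand was present in 21 of these 24, against 37.4% of all 32851 promoters and 43.3% of the 9317 promoters of genes tested in the diet comparison. TCACNCCAC on either strand was present in 1 of the 24, in Hmgcs1 at 137 bases before the start. It was present in 1.24% of all promoters and 1.38% of those of genes tested. CACGTG, an E-box, was present in 5 of the 24 (Dhcr7, Elovl5, Hsd17b7, Insig1 and Sc5d). It was present in 7.15% of all promoters and 11.7% of those of genes tested. No other motif was searched, the 3 motifs do not overlap in the promoters shown except for a CCAAT and an ATTGG in Fasn that share bases, and a match is a description of these letters only.

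Some genes of both arms were lower in CD4+ T cell libraries from mice on the elemental diet. In the sterol arm 7 of 20 genes fell and 0 rose, and in the fatty acid arm 4 of 11 fell and 0 rose (edgeR's quasi-likelihood test, Benjamini-Hochberg adjusted p under 0.05 over 11938 genes). Of all genes tested, 7.75% were called lower and 9.68% higher. At an unadjusted p under 0.05 Ebp and Acss2 were higher, 1 gene in each arm, and DESeq2 and limma-voom each called these 2 genes higher. The genes that fell were Idi1, Fdft1, Sqle, Lss, Cyp51, Insig1 and Srebf2 in the sterol arm and Acly, Acaca, Fasn and Scd2 in the fatty acid arm. Summed over the 20 sterol genes, expression in CPM (exon reads scaled to a common library size) was 812 to 922 (median 850.2) in elemental libraries, against 929 to 1086 CPM (median 1017) in conventional libraries. The 11 fatty acid genes summed to 379 to 444 CPM (median 412) in elemental libraries, against 459 to 597 CPM (median 527) in conventional libraries. For both sums the groups did not overlap.

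**Figure D1:**
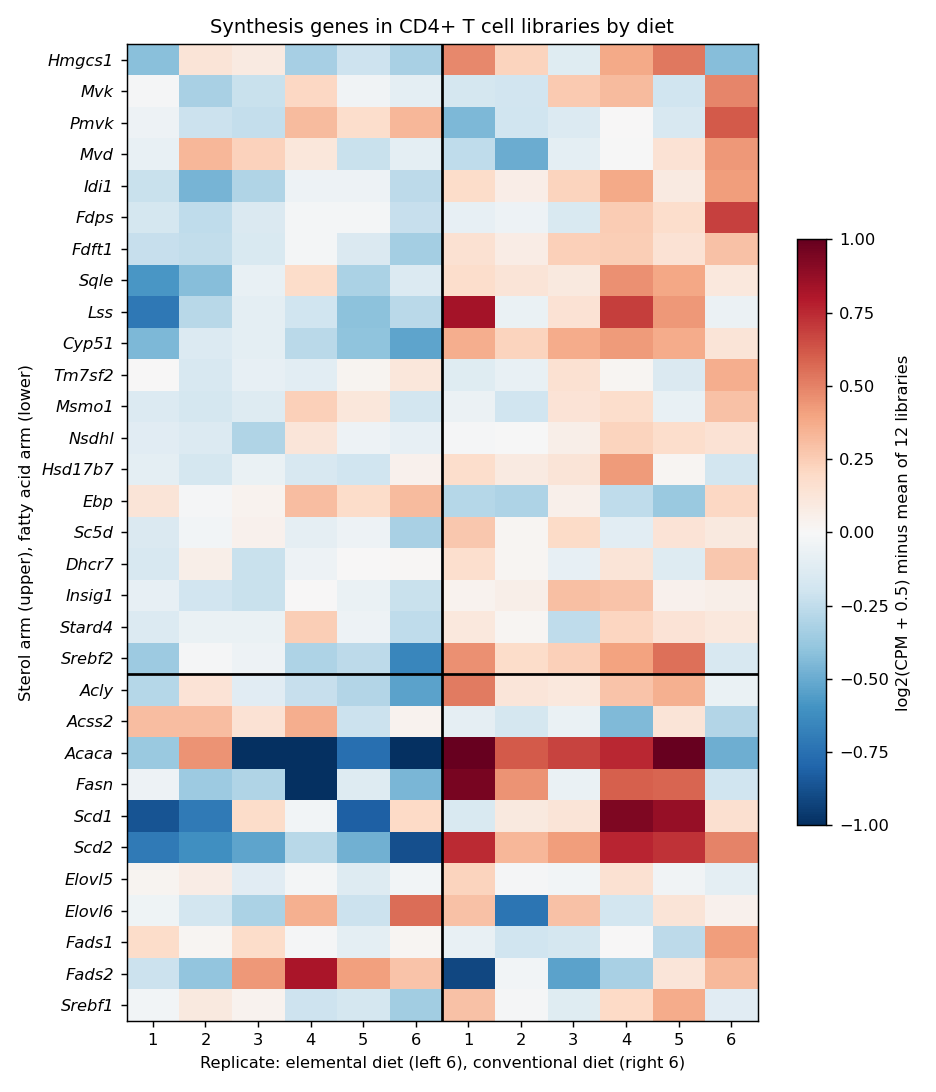
Each cell shows log2(CPM + 0.5) of a gene in a CD4+ library minus that gene's mean over the 12 libraries, with the 6 elemental libraries left of the 6 conventional ones. Idi1, Fdft1, Lss, Cyp51, Insig1 and Scd2 lie below the conventional libraries in all 6 elemental libraries, colours end at -1 and 1, and conventional replicate 6 is the lowest of its group in Hmgcs1, Srebf2, Acaca and Fasn.

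The median log2 fold change was -0.22 over the 20 sterol genes and -0.21 over the 11 fatty acid genes, against -0.01 over all genes tested. The 12 core genes of alpha-beta T cells, described below, had a median of -0.18, with 4 of 12 called lower. The sign was negative in 17 of 20 sterol genes and 7 of 11 fatty acid genes. In 5 sterol genes and 1 fatty acid gene every elemental library lay below every conventional library, which held for 2.35% of all genes tested, and in 0 genes of either arm did every elemental library lie above, against 4.82% of all genes. All 31 genes passed the filter on low counts in this comparison. When all 4 groups were fitted together, which pools these libraries with the far more variable CD44 ones, 0 genes of either arm and 2 genes in all were called.

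In the mevalonate steps at the start of the sterol arm, 1 of 6 enzymes fell, against 7.75% of all genes tested called lower. Idi1, the isomerase that makes the active isoprene unit (chromosome 13, 8885501 to 8892451), had 54.4 to 73.0 CPM (median 63.6) in elemental libraries, against 78.9 to 101 CPM (median 87.2) in conventional libraries. The groups did not overlap, and the log2 fold change was -0.45 ± 0.09 (SE; adjusted p = 0.00486). Hmgcs1, the HMG-CoA synthase that opens the pathway, had 23.8 to 35.0 CPM (median 26.6) in elemental libraries, against 23.7 to 46.4 CPM (median 39.5) in conventional libraries. The groups overlapped, with conventional replicate 6 the lowest of the 12 and conventional replicate 3 below elemental replicates 2 and 3, and the gene was not called (log2 fold change -0.38 ± 0.16, adjusted p = 0.105). Without conventional replicate 6 it was called, at -0.49 and adjusted p = 0.0135, and limma-voom on all 12 libraries called it lower (adjusted p = 0.0142).

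Fdps, which makes farnesyl diphosphate, had 49.5 to 58.3 CPM in elemental libraries, against 53.1 to 95.3 CPM in conventional libraries, and was not called (-0.31 ± 0.13, adjusted p = 0.0986). It is uncertain, because 14.4% of its exon reads in these libraries matched 1 place only. Mvk, the mevalonate kinase, differed by -0.18 ± 0.15 on the log2 scale without a call. The sign of Pmvk and Mvd, the enzymes of the next steps, changed with the processing, and neither was called under any alternative. Mvd overlaps a gene on the opposite strand, with which it may share reads, and had 27.96% of its exon reads at 1 place only.

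All 4 enzymes from farnesyl diphosphate through squalene and lanosterol to its first demethylation were called lower, against 7.75% of all genes tested. The arm was divided into steps for description only, and no difference between steps was tested. Fdft1, squalene synthase (chromosome 14, 63145150 to 63179578), had 28.3 to 35.5 CPM (median 31.4) in elemental libraries, against 37.9 to 44.0 CPM (median 41.2) in conventional libraries. Its groups did not overlap, and the log2 fold change was -0.38 ± 0.08 (adjusted p = 0.00695). Sqle, squalene epoxidase and a rate-limiting enzyme of the pathway (chromosome 15, 59315077 to 59331192), had 20.3 to 35.0 CPM (median 26.2) in elemental libraries, against 32.8 to 42.2 CPM (median 34.2) in conventional libraries. Only elemental replicate 4 reached the conventional range. The log2 fold change of Sqle was -0.44 ± 0.13 (adjusted p = 0.0280), and leaving out any 1 of conventional replicates 4 and 5 and elemental replicates 1 and 5 ended the call (adjusted p up to 0.0715).

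Lss, lanosterol synthase (chromosome 10, 76531588 to 76557138), had 5.91 to 9.36 CPM (median 8.21) in elemental libraries, against 9.54 to 18.2 CPM (median 12.4) in conventional libraries. Of the sterol genes it had the lowest level per length, 1.62 CPM per kilobase of exon in elemental and 2.67 in conventional libraries, and the largest log2 fold change, -0.72 ± 0.19 (adjusted p = 0.0172). Cyp51, the lanosterol demethylase (chromosome 5, 4081145 to 4104746), had 37.9 to 51.4 CPM (median 43.5) in elemental libraries, against 60.1 to 73.9 CPM (median 70.8) in conventional libraries. Neither gene's groups overlapped. Cyp51 had the lowest adjusted p of the sterol arm (log2 fold change -0.63 ± 0.09, adjusted p = 0.000556).

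None of the 7 enzymes after Cyp51 was called, against 17.4% of all genes tested called in either direction. Nsdhl and Hsd17b7, which act on the methyl groups of the ring, had log2 fold changes of -0.19 ± 0.10 and -0.23 ± 0.12 (limma-voom called Hsd17b7 lower, adjusted p = 0.0482), and Msmo1, the methyl oxidase before them, -0.09 ± 0.10. Sc5d, a desaturase, and Dhcr7, the reductase of the last step, had -0.20 ± 0.09 and -0.13 ± 0.09. Ebp, the sterol isomerase, went the other way, with 78.5 to 98.4 CPM (median 87.96) in elemental libraries, against 61.0 to 91.0 CPM (median 65.4) in conventional libraries. Its elemental libraries were all above the conventional mean and its log2 fold change was 0.31 ± 0.11 (adjusted p = 0.0551). Without conventional replicate 3 (adjusted p = 0.0457), conventional replicate 6 (0.00637) or elemental replicate 2 (0.0468), Ebp was called higher. With the exon length trend of each library removed, as described below, Ebp was not called (log2 fold change 0.20, adjusted p = 0.0800). Per length Ebp had the highest level of the 31 genes, 50.8 CPM per kilobase in elemental and 40.9 in conventional libraries. The sign of Tm7sf2, a sterol reductase, changed with the processing, and 42.2% of its exon reads matched 1 place only.

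Among the regulators, Srebf2 and Insig1 fell. Srebf2 (chromosome 15, 82147181 to 82205379) had 81.5 to 127 CPM (median 105) in elemental libraries, against 115 to 188 CPM (median 161) in conventional libraries. Only elemental replicates 2 and 3 lay above a conventional library, which was replicate 6, and the log2 fold change was -0.56 ± 0.13 (adjusted p = 0.00770). Insig1, whose product retains SREBP and whose gene is itself a target of it (chromosome 5, 28071363 to 28078662), had 59.2 to 69.4 CPM (median 63.0) in elemental libraries, against 71.1 to 85.3 CPM (median 72.1) in conventional libraries. The groups did not overlap. Its log2 fold change was -0.26 ± 0.08 (adjusted p = 0.0355), the smallest of the called genes, and leaving out any 1 of conventional replicates 1, 3 and 4 or of the 6 elemental replicates ended the call (adjusted p up to 0.0892). Stard4, a cytosolic carrier of cholesterol, was not called, and its sign changed with the processing.

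The fatty acid arm held the largest changes of the 31 genes. Acly, the citrate lyase that supplies cytosolic acetyl-CoA (chromosome 11, 100476353 to 100528000), had 66.4 to 107 CPM (median 80.9) in elemental libraries, against 92.1 to 139 CPM (median 111) in conventional libraries. Elemental replicate 2 lay within the conventional range and the other 5 below it, and the log2 fold change was -0.44 ± 0.12 (adjusted p = 0.0191). Acss2, which makes acetyl-CoA from acetate, was not called (log2 fold change 0.32 ± 0.12, adjusted p = 0.0727). Its level was 30.2 to 45.3 CPM in elemental libraries, against 25.8 to 38.4 CPM in conventional libraries, and it was called higher without elemental replicate 5 (adjusted p = 0.0358).

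Acaca, the acetyl-CoA carboxylase that commits carbon to fatty acids (chromosome 11, 84129672 to 84401651), had 1.66 to 6.16 CPM (median 2.10) in elemental libraries, against 2.98 to 11.2 CPM (median 7.52) in conventional libraries. Conventional replicate 6 was lowest of its group and below elemental replicates 1 and 2, and no other conventional library was in the elemental range. The log2 fold change was -1.46 ± 0.36 (adjusted p = 0.0135), on 29 to 115 exon reads a library in the elemental group and 49 to 265 in the conventional group. Fasn, fatty acid synthase (chromosome 11, 120805846 to 120824547), had 15.4 to 30.5 CPM (median 25.0) in elemental libraries, against 27.4 to 61.3 CPM (median 45.4) in conventional libraries. Elemental replicates 1 and 5 lay above conventional replicate 6, and elemental replicate 1 also above conventional replicate 3. The log2 fold change was -0.80 ± 0.19 (adjusted p = 0.0121).

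Scd2 and Scd1 encode stearoyl-CoA desaturases, which make oleate and palmitoleate. Scd2 (chromosome 19, 44293676 to 44306864) had 31.2 to 47.6 CPM (median 38.7) in elemental libraries, against 72.8 to 98.4 CPM (median 88.6) in conventional libraries. The groups were well apart, and the log2 fold change of -1.17 ± 0.11 had the lowest adjusted p of the 31 genes (2.87e-05). Scd1 had 14.6 to 31.01 CPM (median 21.4) in elemental libraries, against 24.3 to 52.0 CPM (median 29.8) in conventional libraries. Its groups overlapped and it was not called (-0.68 ± 0.25, adjusted p = 0.0727), though DESeq2 (adjusted p = 0.0319) and limma-voom (adjusted p = 0.0230) called it lower.

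The genes of longer and polyunsaturated chains were not called. Elovl5, an elongase of polyunsaturated fatty acids, had 107 to 123 CPM in elemental libraries, against 109 to 137 CPM in conventional libraries (log2 fold change -0.07 ± 0.08). Fads2, a front-end desaturase, had 3.05 to 7.73 CPM in elemental libraries, against 1.99 to 5.35 CPM in conventional libraries (0.50 ± 0.28, adjusted p = 0.223). The sign of Elovl6 and Fads1, which encode an elongase and another desaturase, changed with the processing. Srebf1 itself had 45.4 to 61.9 CPM (median 53.9) in elemental libraries, against 53.2 to 75.1 CPM (median 61.8) in conventional libraries. Its groups overlapped and it was not called (-0.21 ± 0.11, adjusted p = 0.175).

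**Figure D2:**
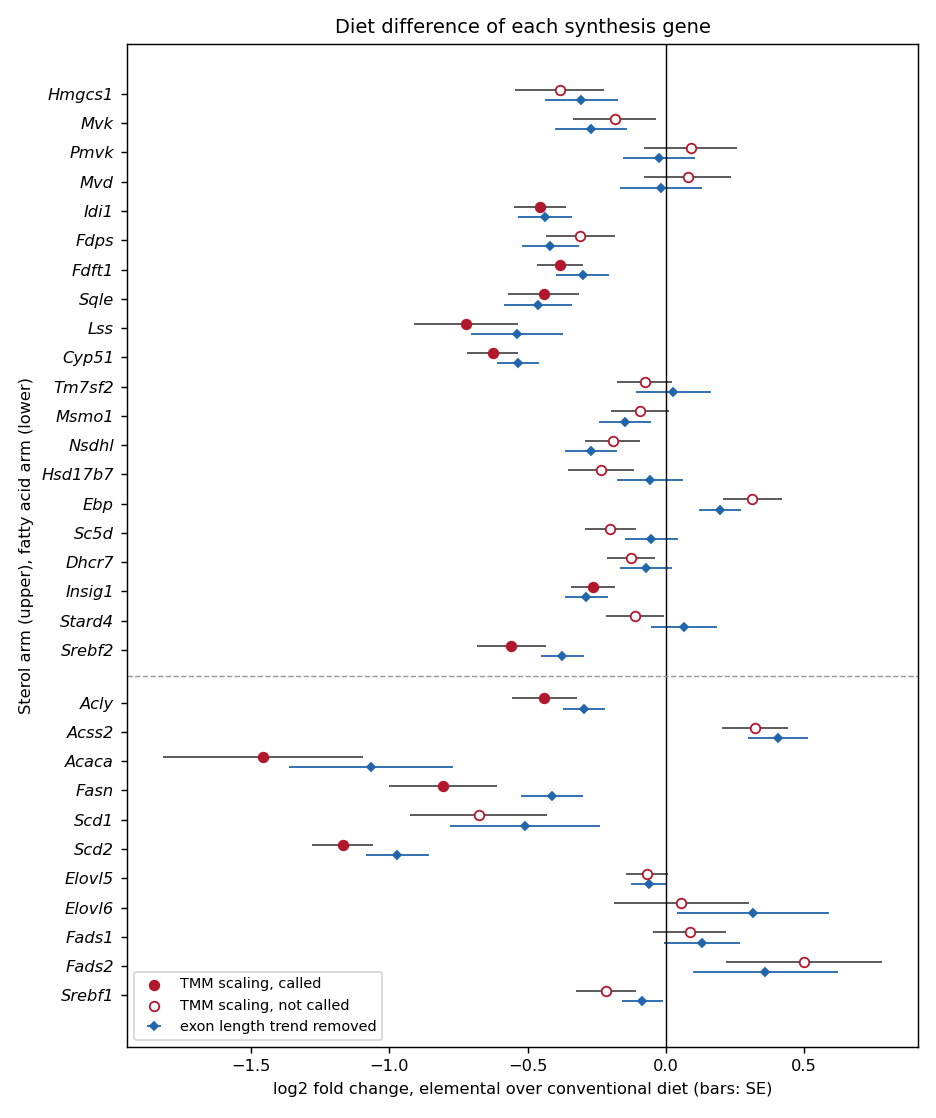
Circles give the log2 fold change of each gene, elemental over conventional diet, with its SE as a bar, and are filled where the gene was called. Diamonds give the value after the exon length trend of each library was removed, and all 11 called genes lie below 0 by both.

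Over all genes the log2 fold change had a trend with exon length, and both arms hold genes of several length classes. Over all genes tested the median log2 fold change was 0.21 for exon lengths up to 1000 bases and -0.37 above 8000 bases, and the share called lower was 2.66% and 18.3% in these classes. Acaca (10127 bases) and Fasn (10605 bases) were the only 2 of the 31 genes above 8000 bases. Spearman's rho between log2 fold change and exon length was -0.57 over the 31 genes and -0.36 over all 11938, as a description of genes measured in the same libraries. The difference in median log2 CPM deviation between genes over 6000 and up to 2000 bases was -0.53 to 0.04 in elemental libraries, against -0.53 to 0.83 in conventional libraries. Conventional replicate 6 had the lowest value of its group.

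**Figure D3:**
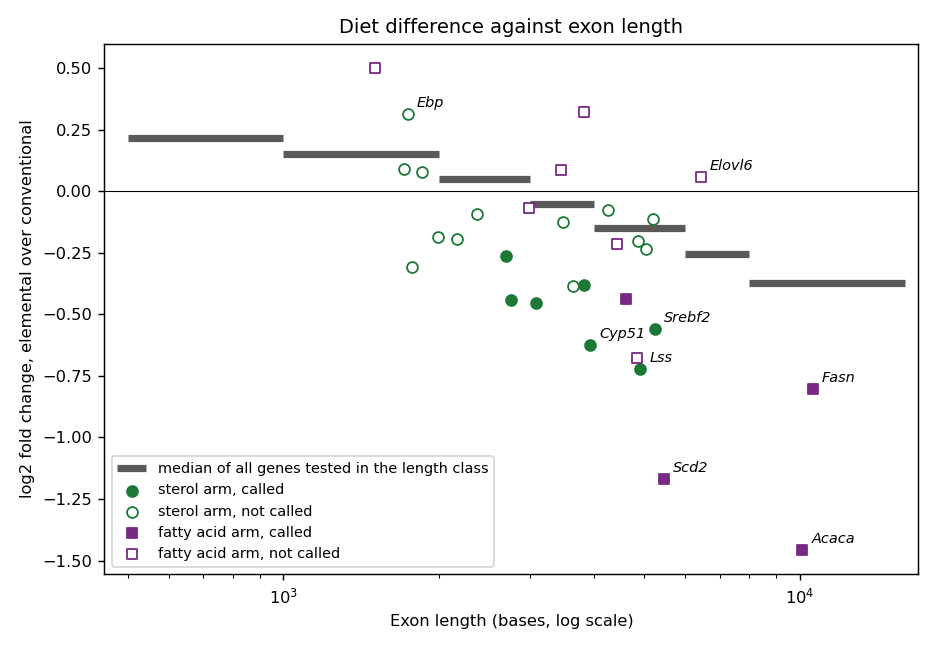
The log2 fold change, elemental over conventional diet, is plotted against exon length on a log scale. Grey bars are medians of all genes tested per length class (the first class runs down to 0 and the last has no upper end) and go from 0.21 to -0.37, and Scd2, Cyp51, Lss and Acaca lie below the bar of their class.

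With that trend removed from each library, an alternative chosen after seeing the data, all 11 called genes were still called lower. The log2 fold change was then -0.97 for Scd2, -0.54 for Cyp51, -0.37 for Srebf2, -1.07 for Acaca and -0.41 for Fasn. In all, 8 sterol genes were called lower, Fdps being added (-0.42, adjusted p = 0.0119), and 4 fatty acid genes, against 6.84% of all genes. Acss2 was called higher (0.41, adjusted p = 0.0177), against 10.2% of all genes. The medians were -0.27 in the sterol arm and -0.08 in the fatty acid arm, and -0.27 over the core genes of alpha-beta T cells.

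Scaling bears on the direction of small changes. Of the 2081 genes called, 55.6% were higher in the elemental group, against 45.0% of 1995 with library size alone in place of TMM factors, which moved the median of all genes to -0.13. With library size alone 8 sterol genes and 4 fatty acid genes were called lower. Of all 11938 genes tested, 1097 were then called lower, against 925 with TMM factors.

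Transcripts of other cell types differed between the same libraries, and in sorted bulk samples fewer cells of a type and less RNA per cell cannot be told apart. The 15 enterocyte markers summed to 1239 to 2265 CPM in elemental libraries, against 85.2 to 1039 CPM in conventional libraries, with 11 of 15 called higher and conventional replicate 6 the highest of its group. The 11 myeloid and dendritic markers in the tables summed to 909 to 1782 CPM in elemental libraries, against 448 to 608 CPM in conventional libraries, all 11 called higher. Germinal centre B cell markers summed to 41.9 to 55.8 CPM in elemental libraries, against 100.1 to 182 CPM in conventional libraries, with 6 of 6 tested markers lower. Plasma cell markers summed to 414 to 895 CPM in elemental libraries, against 961 to 2004 CPM in conventional libraries, with 4 of 7 lower, and B cell markers to 189 to 433 CPM, against 330 to 634 CPM, with 3 of 8 lower. Cell cycle genes summed to 521 to 681 CPM in elemental libraries, against 773 to 963 CPM in conventional libraries, with 13 of 14 tested lower. Core genes of alpha-beta T cells summed to 4404 to 5042 CPM in elemental libraries, against 4691 to 5408 CPM in conventional libraries, with 4 of 12 lower. No marker of these lists was at 0 in every library of a diet group, and their part in the sterol and fatty acid results was not tested.

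Of 14 tested other genes of sterol control 4 fell, the direction of the sterol arm, and 1 rose. Of all genes tested, 7.75% were called lower and 9.68% higher. Gpr155, a cholesterol-binding lysosomal membrane protein, averaged 14.6 ± 1.88 CPM in elemental and 25.04 ± 4.18 CPM in conventional libraries (SD, n = 6 each; log2 fold change -0.77 ± 0.13, adjusted p = 0.00154). Mbtps1, a protease that helps release SREBP from the membrane, changed by -0.51 ± 0.16 (adjusted p = 0.0427), a call lost in 8 of 12 fits that left out 1 library (adjusted p up to 0.0931). Erlin2, a membrane protein of the endoplasmic reticulum, rose by 0.46 ± 0.10 on the log2 scale (adjusted p = 0.00559).

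In the branches that use or move the products more of the called genes rose than fell. Of all genes tested, 7.75% were called lower and 9.68% higher. In the isoprenoid branch 1 of 10 genes was called, Coq2 of ubiquinone synthesis, which rose (0.41 ± 0.10, adjusted p = 0.0131), near the 9.68% of all genes called higher. Of 14 genes of cholesterol esterification, transport and LXR response 3 rose and 1 fell. Nr1h3, which encodes LXR alpha, averaged 10.4 ± 2.20 CPM in elemental and 3.85 ± 1.34 CPM in conventional libraries (SD, n = 6 each; log2 fold change 1.43 ± 0.25, adjusted p = 0.00186). Lpcat3, a phospholipid acyltransferase, rose (0.53 ± 0.13, adjusted p = 0.0110), and Abcg1, a cholesterol exporter, fell (-0.54 ± 0.17, adjusted p = 0.0390), a call lost in 9 of 12 fits that left out 1 library. In the oxysterol list, with 3 of 6 genes tested, Cyp27a1 rose (1.77 ± 0.42, adjusted p = 0.0108). The myeloid, dendritic and enterocyte markers given above were also higher in elemental libraries, and their part in these values was not tested.

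Genes of fatty acid esterification and oxidation rose where they were called. Of all genes tested, 9.68% were called higher and 7.75% lower. Of 14 genes of fatty acid activation and esterification 7 rose and 0 fell, and of 13 tested oxidation genes 6 rose and 0 fell. Of 15 tested further synthesis and elongation genes 4 rose and 0 fell. At an unadjusted p under 0.05, 0, 0 and 2 genes of these lists were lower in that order, DESeq2 called 0 lower in each, and limma-voom called 1, 0 and 1 lower. Dgat2, which makes triglyceride, averaged 24.5 ± 6.77 CPM in elemental and 6.05 ± 2.65 CPM in conventional libraries (SD, n = 6 each), with a log2 fold change of 2.03 ± 0.27 (adjusted p = 0.000243). Mogat2, the monoacylglycerol acyltransferase of intestinal fat absorption, averaged 37.9 ± 12.9 CPM in elemental and 9.50 ± 7.97 CPM in conventional libraries (2.01 ± 0.55, adjusted p = 0.0304), a call lost in 6 of 12 fits that left out 1 library. Gpat3, a glycerol-phosphate acyltransferase, changed by 1.70 ± 0.35 (adjusted p = 0.00439). These genes moved with the enterocyte markers given above, and their part in these values was not tested.

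In the oxidation list Hadh, of mitochondrial beta-oxidation, averaged 170.5 ± 26.99 CPM in elemental and 88.7 ± 19.2 CPM in conventional libraries (SD, n = 6 each), with a log2 fold change of 0.94 ± 0.14 (adjusted p = 0.000518). Acaa2, a thiolase of the same cycle, changed by 0.51 ± 0.11 (adjusted p = 0.00499). Ppargc1a, a coactivator of oxidative metabolism, was scarce, at 1.71 ± 1.03 CPM in elemental and 0.312 ± 0.267 CPM in conventional libraries (2.48 ± 0.67, adjusted p = 0.0207), and lost its call without conventional replicate 4 or elemental replicate 4 or 5. Among further synthesis genes Mlxipl, a carbohydrate-responsive transcription factor, Hacd1, a dehydratase of elongation, and Elovl7, an elongase, rose by 2.00 ± 0.60, 1.84 ± 0.59 and 1.42 ± 0.39 on the log2 scale. All 3 averaged under 5 CPM in both groups, and their calls were lost in 8, 8 and 2 of 12 fits that left out 1 library. The part of enterocyte and myeloid transcripts in the values of this list and the oxidation list was not tested.

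**Figure D4:**
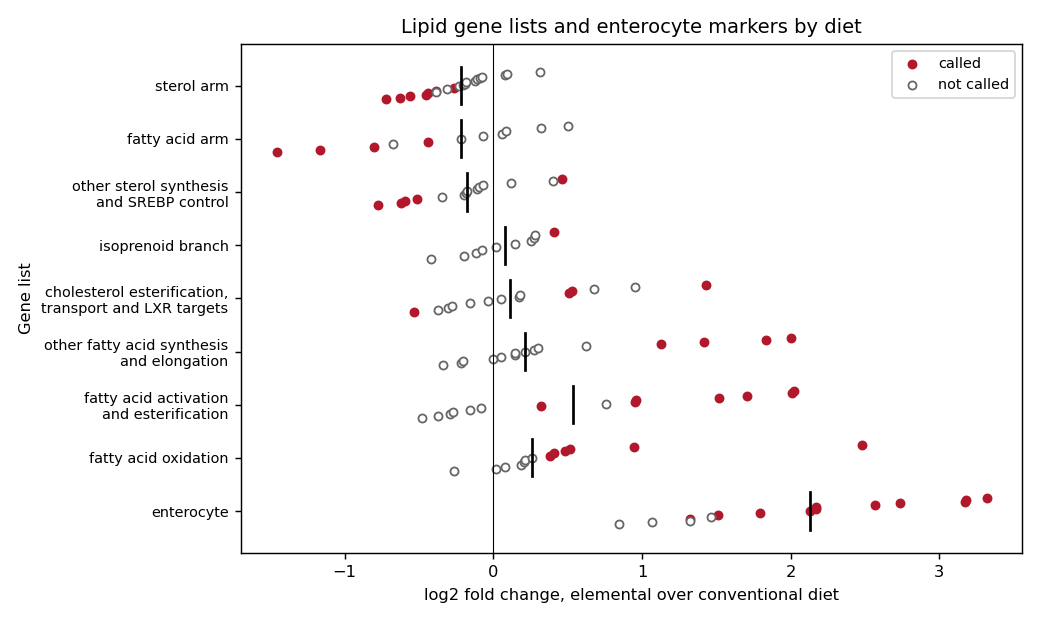
Each point is a tested gene of a list, placed by its log2 fold change, elemental over conventional diet, red where called, and the vertical bars are list medians. The medians of the sterol and fatty acid arms are -0.22 and -0.21, that of fatty acid activation and esterification is 0.54, and that of the enterocyte markers is 2.13.

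Between CD44+ and CD44- T cells no gene of either arm was called. Of the sterol genes 17 of 20 passed the filter on low counts (not Mvk, Lss and Hsd17b7), and of the fatty acid genes 9 of 11 (not Acss2 and Fads2). With edgeR's quasi-likelihood test 0 of these 26 were called, against 0.767% of 8343 genes tested (0.467% lower and 0.3% higher), and DESeq2 and limma-voom also called 0. At an unadjusted p under 0.05 there was 1 sterol gene, Sqle, and 0 fatty acid genes. In 0 of the 26 did the groups not overlap, against 0.36% of all genes in which every CD44+ library was lower and 0.396% in which every one was higher. The medians were 0.12 in the sterol arm and 0.20 in the fatty acid arm (0.03 over all genes), and the median SE of a single gene was 0.78 in the sterol arm and 0.72 in the fatty acid arm. A fit over all 4 groups called 1 gene in each arm and direction (Sqle lower, Tm7sf2 higher, Acss2 lower and Fads2 higher), and these 4 rest on a spread shared with the CD4+ libraries.

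The libraries of 1 ng input differed from each other far more than the CD4+ libraries. The median SD of log2(CPM + 0.5) over the genes tested here was 1.36 in CD44+ and 1.36 in CD44- libraries, against 1.29 and 1.32 over all genes tested. In the CD4+ libraries it was 0.18 on the elemental and 0.21 on the conventional diet. In 15 of the 26 genes the highest CD44+ library was over 10-fold above the lowest, and in 16 of 26 among CD44- libraries, but in 0 of 31 in either diet group. Exon reads ran from 7180390 to 13378353 in these libraries and from 16401589 to 25415205 in the CD4+ libraries.

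Sqle had 0.582 to 12.96 CPM (median 0.955) in CD44+ libraries, against 1.25 to 76.3 CPM (median 5.17) in CD44- libraries. All 7 CD44+ libraries lay below the CD44- mean of 17.1 CPM, but so did CD44- replicates 1, 2, 4, 7 and 8. The highest CD44- value, 76.3 CPM, was that of replicate 6. The ranges overlapped and the log2 fold change was -2.32 ± 1.06 (adjusted p = 0.353). Idi1 had 0.931 to 112 CPM (median 1.80) in CD44+ libraries, against 2.15 to 246 CPM (median 49.4) in CD44- libraries. In 5 of 7 CD44+ libraries and 2 of 7 CD44- libraries it was under 3 CPM, and the log2 fold change was -1.68 ± 1.15 (adjusted p = 0.593). Hmgcs1 had 0.432 to 82.3 CPM (median 35.9) in CD44+ libraries, against 2.05 to 99.6 CPM (median 36.2) in CD44- libraries.

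The sterol genes with the narrowest fold range between libraries were Ebp and Fdps. Ebp had 189 to 637 CPM (median 360.2) in CD44+ libraries, against 139 to 380.0 CPM (median 215) in CD44- libraries, with a log2 fold change of 0.63 ± 0.32 (adjusted p = 0.404). Fdps had 141 to 372 CPM (median 222) in CD44+ libraries, against 85.4 to 272 CPM (median 198) in CD44- libraries (0.55 ± 0.33, adjusted p = 0.512). Pmvk had 40.2 to 155 CPM in CD44+ libraries, against 0.770 to 109 CPM in CD44- libraries (1.35 ± 0.79, adjusted p = 0.497). For these 3 genes the ranges overlapped. Srebf2 had 5.03 to 40.1 CPM (median 7.22) in CD44+ libraries, against 5.80 to 52.6 CPM (median 10.5) in CD44- libraries, and 18.8% of its reads in these libraries lay in exons.

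In the fatty acid arm Scd1 had 0.120 to 178 CPM (median 28.4) in CD44+ libraries, against 0.242 to 70.0 CPM (median 3.36) in CD44- libraries (log2 fold change 1.61 ± 1.21, adjusted p = 0.634). Scd2 had 2.59 to 74.0 CPM (median 48.2) in CD44+ libraries, against 3.98 to 45.3 CPM (median 30.7) in CD44- libraries (0.60 ± 0.72, adjusted p = 0.788). Fasn had 2.08 to 27.0 CPM (median 5.09) in CD44+ libraries, against 0.960 to 12.5 CPM (median 3.75) in CD44- libraries (0.97 ± 0.78, adjusted p = 0.662). None of these 3 genes separated the groups. Srebf1 had 1.73 to 11.99 CPM (median 3.29) in CD44+ libraries, against 1.76 to 8.09 CPM (median 3.06) in CD44- libraries. Acaca was at 0.576 to 3.24 CPM in CD44+ libraries, against 0.220 to 7.08 CPM in CD44- libraries, and 7.05% of its reads lay in exons. The sign of 8 of 17 sterol genes and 5 of 9 fatty acid genes changed with the processing. With the exon length trend removed, 0 genes of either arm were called, against 0.491% of all genes lower and 0.18% higher.

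**Figure D5:**
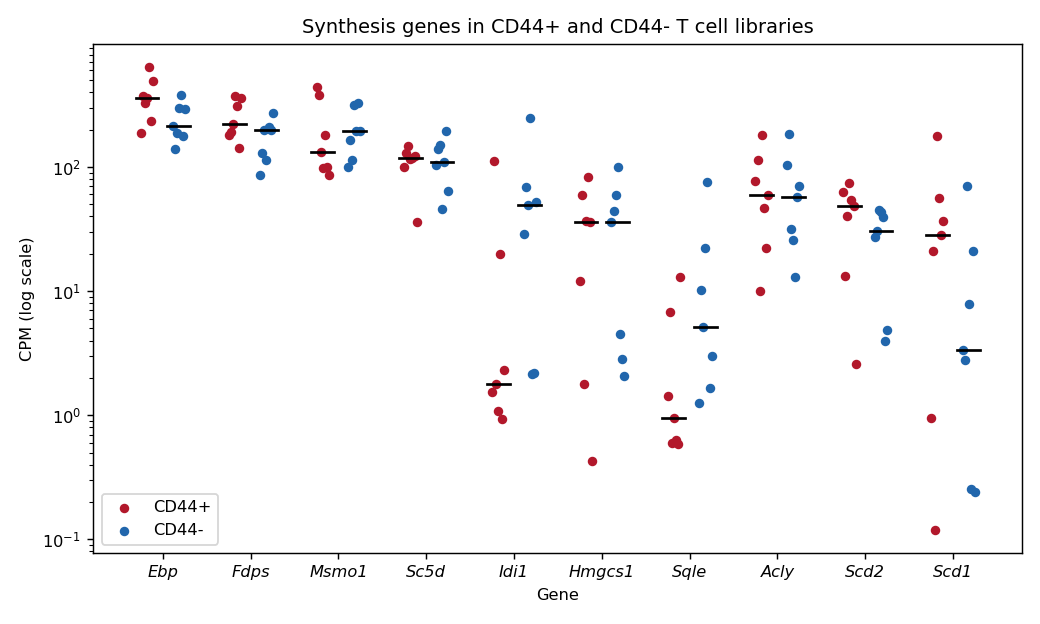
Points are CPM on a log scale in single libraries for 10 genes of both arms, with CD44+ left of CD44- and the median of each group as a bar. The groups overlap in every gene shown, Ebp and Fdps vary least, and Idi1, Hmgcs1, Sqle and Scd1 span over 10-fold within each group.

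The 5 genes that did not pass the filter had few reads in many CD44 libraries. Fads2 had 0 exon reads in 3 of 7 CD44+ libraries, against 6 of 7 CD44- libraries, and Acss2 had 0 to 5.75 CPM in CD44+ libraries, against 0.111 to 33.4 CPM in CD44- libraries. Mvk, Lss and Hsd17b7 each had a median under 1 CPM in both groups. Of the other sterol control genes 0 of 13 tested were called (1 lower and 1 higher at an unadjusted p under 0.05, and 0 by DESeq2 and limma-voom). Of 49 tested genes in the other 6 lipid lists 0 were called by edgeR, with 4 lower and 2 higher at an unadjusted p under 0.05, while DESeq2 called 1 lower and limma-voom 0. Plasma cell markers summed to 3868 to 8171 CPM in CD44+ libraries, against 401 to 3142 CPM in CD44- libraries, with 2 of 6 tested markers higher (Jchain and Mzb1), and cell cycle genes to 449 to 810 CPM, against 159 to 638 CPM. The enterocyte markers Alpi and Sis were at 0 in all CD44+ libraries and Alpi in all CD44- libraries. The part of these markers in the values was not tested.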

How the data were processed

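Messenger RNA of 26 libraries was sequenced, and the authors deposited whole read counts per gene and library, for exons and for whole genes. TPM and RPKM columns, named so in the file headers, were left aside. Per the submitters' processing notes, reads were placed on build GRCm38. Which aligner and counter were used, and whether strand was, is not given in the sources used here. Overlapping genes on opposite strands (Fdft1 and Ctsb, Cyp51 and Akap9, Srebf1 and Rai1, Acss2 with Ggt7 and Gss, Idi1 and Gm48574, Mvd and Gm20388) may therefore share reads. In 3759 genes the exon length was 0.

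Total exon reads were tested over the whole table with edgeR 4.0.16 (R 4.3.3): filterByExpr by group, TMM factors, robust quasi-likelihood fits on the 2 groups compared, and Benjamini-Hochberg adjustment, with genes called under 0.05. SE is the size of a log2 fold change over the root of its F statistic. CPM values use TMM-scaled library sizes. DESeq2 1.42.0, limma 3.58.1 (voom with quality weights), other scalings, unique or total gene reads, no filter, a replicate block and each library left out were alternatives. The length trend was a lowess curve of span 0.3 per library. Fits were tested on simulated data. Python 3.11.15, numpy 2.4.6, pandas 2.3.3 and matplotlib 3.10.9 made tables and figures.

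No 2 libraries of a group agreed within sampling noise (lowest chi-square per degree of freedom 11.9). The genes and lists were chosen with earlier results of these data known. Every one of the 31 genes is named. Of the other lists, up to 3 called genes with the largest log2 fold change are named, and values of some further genes are not reported here.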

Additional observations from a re-analysis of the deposited data

Results flagged for a closer look

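A library far from the others of its group was found in 6 of 114 sets of values, by the gap to its nearest neighbour over the group's range. The sets were 31 genes in each diet group and the 26 genes tested in each CD44 group. Chance gives about 1 in 20, so the count is near that of chance. On the conventional diet Acaca was lowest in replicate 6, at 2.979 CPM, with the others at 6.978 to 11.2 CPM. Among CD44+ libraries Sc5d was lowest in replicate 8, at 36.3 CPM, against 99.47 to 148 CPM in the others. Acaca was highest in CD44+ replicate 4, at 3.236 CPM, against 0.5762 to 1.281 CPM. Fads1 was highest in CD44+ replicate 2, at 13.46 CPM, against 1.729 to 4.382 CPM. Among CD44- libraries replicate 7 was lowest for Fdft1, at 1.797 CPM against 43.1 to 106.9 CPM, and highest for Srebf2, at 52.64 CPM against 5.798 to 15.17 CPM. The causes were not tested.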

How the results depend on the processing

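In the diet comparison the count of all genes called was 4095 with limma-voom and quality weights, 2 with all 4 groups in 1 fit, and 3379 when conventional replicate 6 and elemental replicate 1 were both dropped; leaving out 1 library gave 1299 (without conventional replicate 4) to 3865 (without conventional replicate 6). The sterol genes called lower were 0 with all 4 groups in 1 fit and 5 to 8 with 1 library left out, and the fatty acid genes called lower 0 with all 4 groups and 4 with any 1 library left out. Called higher was 1 sterol gene under DESeq2, limma-voom, total gene reads, the replicate block and without both libraries named (0 to 1 with 1 library left out), and 1 fatty acid gene under DESeq2, limma-voom and the length trend removed (0 to 1). Between CD44+ and CD44- cells 401 genes were called by DESeq2, 101 on total gene reads, 37 with the replicate block, 1748 with all 4 groups, and 36 to 87 with 1 library left out; each arm then had 1 gene lower and 1 higher with all 4 groups and 0 with 1 library left out. Of its calls 39.1% were higher, against 26.8% with the length trend removed. No called gene changed sign.

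Whether same-numbered libraries were paired is not known, and the main fits treated all libraries as unpaired. The correlation of same-numbered deviations was over 0.1 in 2 of 6 diet pairs and 1 of 7 CD44 pairs. In each comparison 1 library correlated best with its own number. The CD44+ and CD44- groups skip the same replicate number and their libraries varied widely, so low correlations cannot exclude pairing. With the replicate block 2033 genes were called by diet, with 6 sterol and 4 fatty acid genes lower. In the diet libraries Acaca, Elovl6 and Fads2 had the fewest exon reads, and in the CD44 libraries many of the 31 genes had few. The causes were not tested.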
